A study of Mus musculus with 4 samples.

Results

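The cells described here are interferon-responding macrophages without Ly6c2, 99 of the 21388 cells that passed the cell filters in 4 single-cell libraries of macrophages sorted from mouse perigonadal white adipose tissue. A cell was kept with at least 500 unique molecular identifiers (UMIs, each counting 1 captured transcript), at least 300 genes and at most 10% of its UMIs from mitochondrial genes. A kept cell was a member when it held a UMI of at least 3 of 7 interferon-stimulated genes (Rsad2, Isg15, Ifit1, Ifit2, Ifit3, Cxcl9 and Cxcl10), when these genes together reached 8 UMIs per 10000, and when it held a UMI of C1qa or Csf1r. It also had to hold no UMI of Ly6c2 (the monocyte surface protein Ly6C), Arg1, Mki67 or Top2a. The interferon criteria were met by 189 cells. Of these, 23 lacked C1qa and Csf1r, 33 held Ly6c2, 12 held Arg1 and 36 held Mki67 or Top2a, and a cell could fail on several counts. The members are set below against the other 14317 kept cells that held C1qa or Csf1r and none of the 4 excluded genes, called the other macrophages. The rule used the values of the 7 genes, so their levels and every difference between members and other macrophages are given as a description, with no test.

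The study crossed a conditional knockout of BLIMP1 with diet, and each of its 4 groups is 1 library: knockout (CKO) on a high fat diet (HFD), control (WT) on HFD, CKO on normal diet and WT on normal diet. All cells were sorted as live CD45+ CD11b+ CD64+ cells without the lineage markers stained, so all 4 groups share that gate. Neither the labels nor the files used here give the Cre driver, the deleted exons or the number of animals behind each library. With 1 library per group there is no replicate error, and no p-value is given. Each interval is an exact 95% counting interval, which covers counting error only.

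The deposited matrices held 42566954 UMIs in CKO HFD, 74879066 in WT HFD, 24543868 in CKO normal diet and 21829741 in WT normal diet. The libraries kept 8731 cells in CKO HFD, 4650 in WT HFD, 4302 in CKO normal diet and 3705 in WT normal diet. The median kept cell held 3923 UMIs in CKO HFD, 14492.5 in WT HFD, 3939 in CKO normal diet and 4092 in WT normal diet, so that cells of WT HFD were read far more deeply than the others. Prdm1, which encodes BLIMP1, stood at 22.9, 21.9, 28.4 and 22.9 CPM (counts per 1000000 UMIs) over the kept cells of those libraries in the same order. The reads come from the 3′ end of transcripts and the deleted part of the gene is not given, so these values do not check the labels. Members held 4, 8, 3 and 11 Prdm1 UMIs in that order. Between 11 and 21 kept cells of a library carried a barcode also seen in another library, 70 in all, and none of them was a member.

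Type I interferons signal through a receptor of Ifnar1 and Ifnar2 and the kinases Jak1 and Tyk2 to a transcription factor complex that includes STAT2 and IRF9 and binds the interferon-stimulated response element. Interferon gamma signals through Ifngr1 and Ifngr2 to factors that bind the gamma-activated site. Macrophages answer both with antiviral proteins, guanylate-binding proteins and the chemokines CXCL9 and CXCL10, which attract activated T cells through the receptor CXCR3. In textbook accounts Cxcl9 depends mainly on interferon gamma, while Rsad2, Isg15 and the Ifit genes answer type I interferon.

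The 250 bases before the annotated start of 6 genes the results turn on are shown because they place, or fail to place, these 2 elements. The sequences are from RefSeq on GRCm38.p6, read 5′ to 3′ on the strand of the gene. Capitals mark GAAANNGAAA or its reverse complement TTTCNNTTTC, the core of the interferon-stimulated response element, or TTCNNNGAA, the palindromic core of the gamma-activated site.
Isg15 (chr4:156200819-156201068, minus strand): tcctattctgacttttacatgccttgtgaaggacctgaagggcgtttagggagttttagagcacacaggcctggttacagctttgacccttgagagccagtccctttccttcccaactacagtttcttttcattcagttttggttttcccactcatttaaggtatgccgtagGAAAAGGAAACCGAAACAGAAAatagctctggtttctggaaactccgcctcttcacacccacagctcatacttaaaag
Ifit3 (chr19:34583279-34583528, plus strand): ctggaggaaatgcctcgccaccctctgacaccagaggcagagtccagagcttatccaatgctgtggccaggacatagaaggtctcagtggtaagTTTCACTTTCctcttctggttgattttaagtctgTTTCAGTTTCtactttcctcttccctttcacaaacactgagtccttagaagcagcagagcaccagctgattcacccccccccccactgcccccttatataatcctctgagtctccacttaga
Cxcl10 (chr5:92348890-92349139, minus strand): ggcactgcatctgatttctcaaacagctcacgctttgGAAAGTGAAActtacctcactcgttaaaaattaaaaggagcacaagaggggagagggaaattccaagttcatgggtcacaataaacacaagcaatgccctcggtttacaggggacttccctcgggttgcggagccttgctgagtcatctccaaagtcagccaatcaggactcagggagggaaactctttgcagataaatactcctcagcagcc
Cxcl9 (chr5:92328080-92328329, minus strand): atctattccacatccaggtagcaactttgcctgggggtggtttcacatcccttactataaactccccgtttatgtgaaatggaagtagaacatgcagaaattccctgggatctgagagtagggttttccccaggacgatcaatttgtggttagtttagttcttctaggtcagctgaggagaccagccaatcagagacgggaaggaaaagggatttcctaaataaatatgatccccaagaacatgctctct
Fcgr1 (chr3:96293970-96294219, minus strand): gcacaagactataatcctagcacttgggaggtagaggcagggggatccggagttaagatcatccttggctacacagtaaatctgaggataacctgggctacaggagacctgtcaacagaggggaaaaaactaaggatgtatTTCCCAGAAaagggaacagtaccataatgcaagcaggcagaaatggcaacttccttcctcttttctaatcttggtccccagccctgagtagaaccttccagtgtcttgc
Fcgr4 (chr1:171018676-171018925, plus strand): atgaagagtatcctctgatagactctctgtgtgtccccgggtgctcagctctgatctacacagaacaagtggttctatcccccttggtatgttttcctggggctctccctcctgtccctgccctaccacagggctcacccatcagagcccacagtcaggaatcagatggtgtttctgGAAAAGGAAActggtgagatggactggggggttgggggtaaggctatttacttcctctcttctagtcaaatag

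Isg15 held 3 overlapping matches to the response element core, starting 78, 72 and 66 bases before the gene's start. Ifit3 held 2, at 156 and 122 bases before it, and Cxcl10 held 1, at 213 bases. Fcgr4 held 1 at 73 bases, and Fcgr1 held a gamma-activated site core at 109 bases. Cxcl9 held neither motif in this window. Among the 7 genes of the rule, 5 held the response element core (71.4%), against 936 of 27025 genes with a window (3.46%). One of the 5, Ifit1, has a window whose start did not match the beginning of an annotated transcript, and without it 4 of 6 held the core (66.7%). The gamma-activated site core was in 2197 windows (8.13%). These matches describe letters in a window and do not show binding.

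Members made up 0.492% of kept cells in CKO HFD (43 cells, interval 0.357 to 0.663%), 0.366% in WT HFD (17 cells, 0.213 to 0.585%), 0.349% in CKO normal diet (15 cells, 0.195 to 0.574%) and 0.648% in WT normal diet (24 cells, 0.415 to 0.962%). The 4 intervals overlap. CKO over WT was 1.35 under HFD (0.752 to 2.52) and 0.538 under normal diet (0.263 to 1.07). HFD over normal diet was 1.41 in CKO (0.769 to 2.74) and 0.564 in WT (0.285 to 1.10), from the same 4 libraries. No ratio's interval lay clear of 1, so a difference in share between libraries was not detectable with these numbers of members.

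Because a deeper cell shows more genes, each cell was also thinned to 2000 UMIs and the rule applied anew. The share was then 0.418% in CKO HFD (32 of 7655 cells), 0.262% in WT HFD (12 of 4583), 0.172% in CKO normal diet (6 of 3482) and 0.396% in WT normal diet (12 of 3030). Cells too shallow to thin numbered 1076, 67, 820 and 675 in that order. CKO over WT was 1.60 under HFD, with an upper bound of 3.40 and a lower one under 1, and 0.435 under normal diet (0.134 to 1.25). HFD over normal diet was 2.43 in CKO, with a lower bound of 1.00 and an upper one of 7.10, and 0.661 in WT (0.272 to 1.61). Of the original members 41, 17, 14 and 23 were deep enough to be thinned, and 26, 9, 5 and 11 of them passed again.

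A looser rule, at least 2 of the 7 genes, gave 80 cells in CKO HFD (0.916%), 20 in WT HFD (0.430%), 33 in CKO normal diet (0.767%) and 44 in WT normal diet (1.19%). Under it CKO over WT was 2.13 under HFD (1.29 to 3.67), and HFD over normal diet in WT was 0.362 (0.202 to 0.628). At a level of 16 UMIs per 10000, CKO over WT on normal diet was 0.405 (0.151 to 0.991). A level of 4 put CKO over WT under HFD below 1, at 0.826 (0.507 to 1.37). It did the same for HFD over normal diet in CKO, at 0.924 (0.551 to 1.59). CKO over WT on normal diet and HFD over normal diet in WT stayed below 1, at 0.713 and 0.797. WT HFD, the deepest library, gained the fewest cells when 2 genes were enough. It gained the most at a level of 4 UMIs per 10000, from 17 to 29 members, while CKO HFD went from 43 to 45. Cells of at least 8 UMIs per 10000 that fell short of the 3 genes were common, with 78 cells at 2 genes and 139 at 1 gene. Just inside the level threshold, 12 members held 8 to 10 UMIs per 10000, and just outside it 12 cells held 6 to 8.

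**Figure D1:**
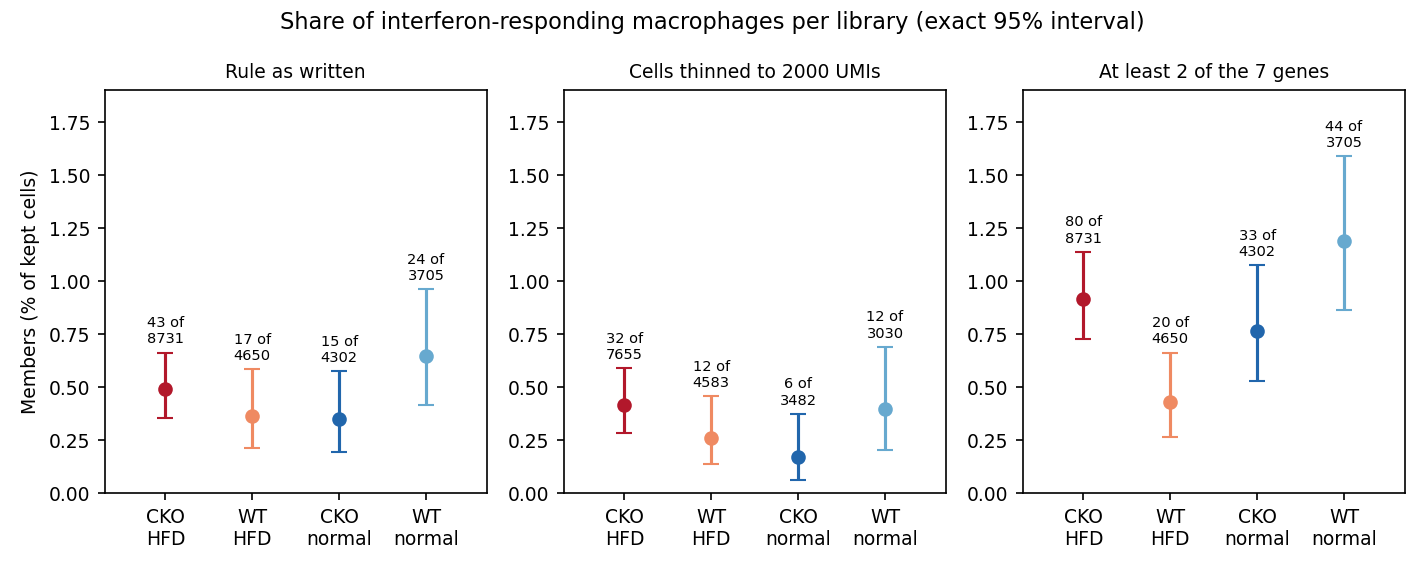
Members as a percent of kept cells (vertical axis) in each library, under the rule as written (left), after thinning each cell to 2000 UMIs (middle) and with at least 2 of the 7 genes (right). Points are shares, bars exact 95% binomial intervals, and the labels give members of cells. Under the rule as written the 4 intervals overlap; WT HFD lies lowest, at 0.430%, only with the looser rule.

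Members differed widely in how many of the 7 genes they held and at what level. Of the 99, 39 held exactly 3 of the 7 genes, 22 held 4, 17 held 5, 17 held 6 and 4 held all 7. The summed level of the 7 genes ran over a wide range, 8.11 to 397 UMIs per 10000, with medians of 30.8 in CKO HFD, 24.0 in WT HFD, 18.6 in CKO normal diet and 33.1 in WT normal diet. By contrast 11990 of the 14416 macrophages, members included, held no UMI of any of them. Isg15, a ubiquitin-like protein attached to other proteins, was in 89 members, and Rsad2, the antiviral enzyme viperin, in 74. Ifit3, Ifit1 and Ifit2, which bind viral RNA or the proteins that do so, were in 67, 59 and 48. Cxcl10 was in 56 and Cxcl9 in 27.

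As a measure of free RNA, the same genes were counted in kept cells outside the macrophages with at least 3 fibroblast markers. These numbered 60 in CKO HFD, 41 in WT HFD, 4 in CKO normal diet and 1 in WT normal diet, with median depths of 3375.5, 13804, 3519.5 and 6590 UMIs. Rsad2 had a UMI in none of them, Isg15 in 4, 2, 0 and 0, Ifit3 in 4, 8, 0 and 0, and Cxcl9 in 1, 0, 0 and 0. A single fibroblast-marked cell, in CKO HFD, met the interferon criteria.

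Rsad2 stood at 576 CPM in members of CKO HFD, 960 in WT HFD, 541 in CKO normal diet and 655 in WT normal diet, against 3.96, 4.01, 10.1 and 7.93 CPM in the other macrophages. Isg15 stood at 1164, 1155, 451 and 484 CPM in members, against 23.2, 15.5, 15.9 and 14.2 CPM in the other macrophages. Cxcl10 stood at 1322, 850, 811 and 702 CPM in members, against 11.3, 5.98, 48.6 and 52.2 CPM in the other macrophages. Isg15 was higher in members of both HFD libraries than of both normal diet libraries, while Rsad2 was highest in WT HFD.

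Cxcl9 was the least even of the rule's genes, at 1834 CPM in members of CKO HFD, 97.3 in WT HFD, 442 in CKO normal diet and 1326 in WT normal diet, against 17.4, 2.52, 13.3 and 18.9 CPM in the other macrophages. These levels came from 9, 4, 3 and 11 member cells. The cell with the most Cxcl9 held 165 of the 430 UMIs in CKO HFD, 13 of 23 in WT HFD, 40 of 49 in CKO normal diet and 78 of 255 in WT normal diet. Without those cells Cxcl9 stood at 1156, 44.6, 114 and 943 CPM, and the order of the 4 libraries was the same.

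**Figure D2:**
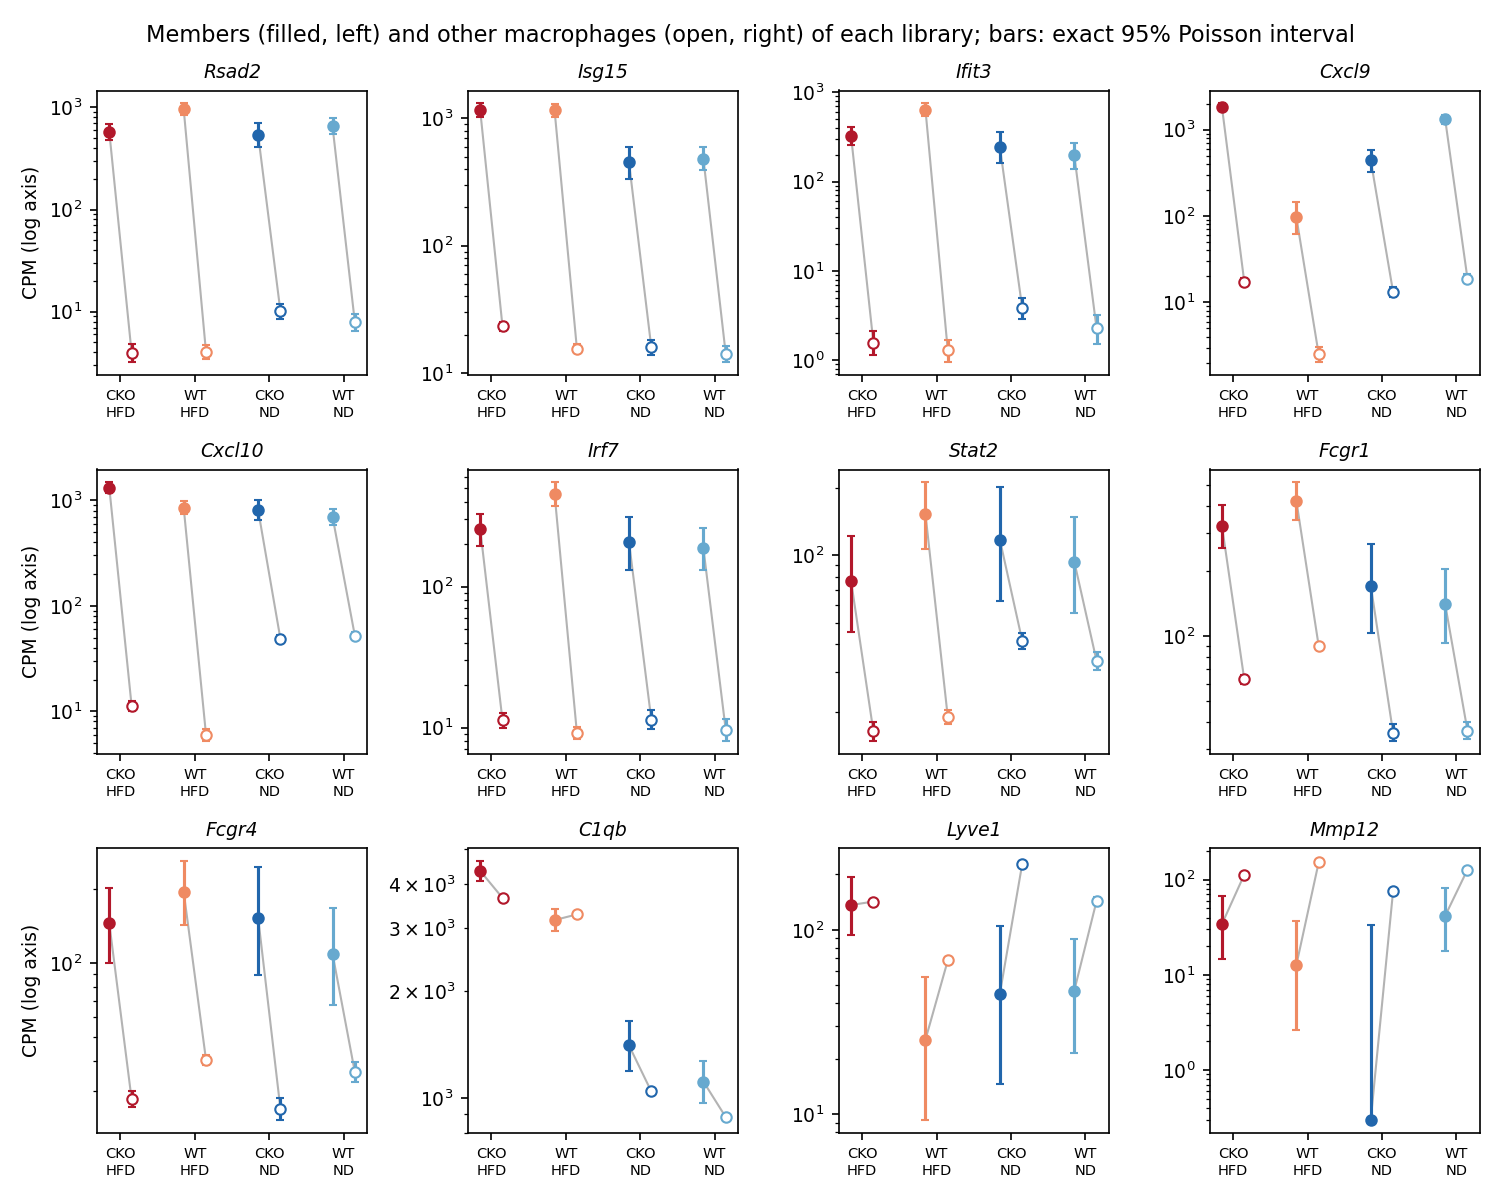
Pooled level of 12 genes in CPM (log axis) in each library, members as filled points on the left of each pair and other macrophages as open points on the right, with exact 95% Poisson intervals. A set with no UMI is drawn at 0.3 CPM, which applies to Mmp12 in members of CKO normal diet. Rule genes are far apart by construction; Fcgr1 and Fcgr4 are higher in members in all 4 libraries, while C1qb differs little.

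Differences from the other macrophages are log2 ratios of CPM with 10 CPM added to both, over genes whose higher set reached 50 CPM and 20 UMIs. At least 2-fold higher in members were 4.54% of 2334 genes in CKO HFD, 5.04% of 2778 in WT HFD, 1.91% of 2561 in CKO normal diet and 3.87% of 3023 in WT normal diet. At least 2-fold lower were 1.71%, 3.82%, 8.67% and 5.49% in that order. In all 4 libraries 27 genes were at least 2-fold higher, 1.76% of the 1530 that passed in each, and 1 gene was at least 2-fold lower (0.0654%). The 27 became 4 when members were chosen and measured on separate UMIs, and 1 after thinning. They do not include the 7 genes of the rule. They include Iigp1, Gbp2, Irf7, Oasl1, Ms4a4c, Phf11b, Slfn5, Ifi204, Ifih1, Tor3a, Rnf213, Parp14, Fgl2, Mndal, Trim30a, Ifi203, Pnp, Dck, Nampt, Bst2, Lgals9, Sp100, Samd9l, Trafd1, Tmcc3 and Samhd1, ordered from a median log2 ratio of 3.60 for Iigp1 to 1.27 for Samhd1. Of the 22 with a promoter window, 8 held the response element core (36.4%) and 3 the gamma-activated site core (13.6%), against 3.46% and 8.13% of all windows. In the 15 windows whose start matched the beginning of an annotated transcript, 4 held the first (26.7%) and 2 the second (13.3%). Most of these genes are known interferon-stimulated genes, and since members were chosen by such genes their presence here is no independent finding.

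Some of the 27 were in none of the gene lists used here, among them Pnp, Dck and Nampt. Pnp, purine nucleoside phosphorylase, stood at 465, 580, 288 and 224 CPM in members, against 98.6, 107, 80.0 and 68.8 CPM in the other macrophages. Dck, deoxycytidine kinase, stood at 107, 190, 243 and 109 CPM in members, against 22.1, 18.0, 54.3 and 39.3 CPM in the other macrophages. Nampt, which makes the precursor of NAD, stood at 235, 228, 261 and 432 CPM in members, against 50.8, 58.8, 96.9 and 91.8 CPM in the other macrophages. These 3 genes were higher in members of every library, and were named after their values were seen.

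Among the ligands themselves, no interferon transcript was found in members of 3 libraries, and 1 UMI of Ifnb1 was found in 1 cell of WT normal diet. Of 20 interferon genes in the files 20, 20, 20 and 19 stood at 0 in members, a depth at which 3 UMIs correspond to 12.8 CPM in CKO HFD, 12.7 in WT HFD, 27.0 in CKO normal diet and 15.6 in WT normal diet. The receptors were near the other macrophages, with median log2 ratios of -0.03 for Ifnar1, 0.15 for Ifnar2 and 0.06 for Ifngr2. Ifngr1 was lower in members of all 4 libraries (median -0.45), as was the kinase Jak1 (median -0.43). So were 18.2% of the 4779 genes of at least 20 CPM over kept cells, whose median log2 ratio was -0.10.

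Of the transcription factors downstream, Irf7, which amplifies type I interferon production, stood at 256, 453, 207 and 187 CPM in members, against 11.3, 9.19, 11.4 and 9.66 CPM in the other macrophages. Stat2 stood at 76.8, 152, 117 and 93.6 CPM in members, against 16.4, 19.0, 41.6 and 33.7 CPM in the other macrophages. Irf9, the partner of STAT2, had a median log2 ratio of only 0.40, Irf1 of 0.90 and Irf3, the factor activated by nucleic acid sensors, of -0.46. Irf9 rested on 41 UMIs in 31 members and Irf3 on 14 UMIs in 13 members. Neither passed the filter on level and UMIs in any library. The log2 ratio of Irf3 ran from -1.22 to 0.48 over the libraries, and no library's interval lay clear of 1, so its direction was not resolved. Irf7, Stat2, Irf1 and Irf9 stood above the other macrophages in all 4 libraries. Their intervals lay clear of 1 in 4, 4, 3 and 0 libraries in that order.

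Sensors of nucleic acids were uneven, and 2 of the 4 above 20 CPM over kept cells were higher in members of all 4 libraries, against 8.24% of the 4779 genes. Zbp1, a sensor of Z-form nucleic acid, stood at 226, 296, 171 and 172 CPM in members, against 17.6, 14.1, 21.1 and 19.7 CPM in the other macrophages. Ddx58, which encodes the RNA sensor RIG-I, had a median log2 ratio of 2.32 and Ifih1, which encodes MDA5, of 2.50. The endosomal receptor Tlr7 had a median of -0.00 and Tlr3 of 1.22. Cgas, which senses cytosolic DNA, Tmem173, which encodes its partner STING, and the RNA sensing adaptor Mavs had medians of 0.93, 0.25 and 0.22, and each was lower in members of at least 1 library.

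Antiviral effectors outside the rule were higher in members. At a filter that does not depend on the members, 20 CPM over kept cells of every library, 13 of 13 were higher in all 4 libraries, against 8.24% of 4779 genes, and their median log2 ratio was 1.80. At least 2-fold higher in all 4 were 11 of the 13, against 39 of the 4779 genes. An example is Bst2, the virus-tethering protein tetherin (median 1.89). Without regard to that filter, the 2′-5′ oligoadenylate synthetase Oas3 had a median of 3.12 and the nucleotide kinase Cmpk2 of 3.46. Each passed 50 CPM and 20 UMIs in 3 libraries only, and did so through the members. Of the 4 listed genes that attach or remove ISG15, none reached 20 CPM over kept cells. Usp18, the ISG15 protease and brake on the interferon receptor, had a median of 2.94 and the ligase Herc6 of 2.33. Both passed 50 CPM and 20 UMIs in 2 libraries, through the members. Ube2l6 had a median of 1.86, and Uba7 of 0.83 with higher values in 3 libraries.

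The AIM2-like proteins, DNA-binding proteins of the Ifi200 cluster, and the guanylate-binding and immunity-related GTPases formed 2 more lists. Summed over the AIM2-like list, members held 2704 CPM in CKO HFD, 3190 in WT HFD, 2479 in CKO normal diet and 2267 in WT normal diet, against 645, 534, 771 and 698 CPM in the other macrophages. All 5 genes of that list above 20 CPM over kept cells were higher in all 4 libraries, against 8.24% of the 4779 genes. Of the 18 listed GTPases none reached 20 CPM over kept cells. The GTPases together held 1706, 1142, 1442 and 1763 CPM in members, against 114, 94.9, 245 and 235 CPM in the other macrophages. Iigp1, which attacks the vacuoles of intracellular pathogens, stood at 239, 84.6, 315 and 234 CPM in members, against 1.88, 1.21, 12.8 and 13.7 CPM in the other macrophages. It passed 50 CPM and 20 UMIs in all 4 libraries, through the members.

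**Figure D3:**
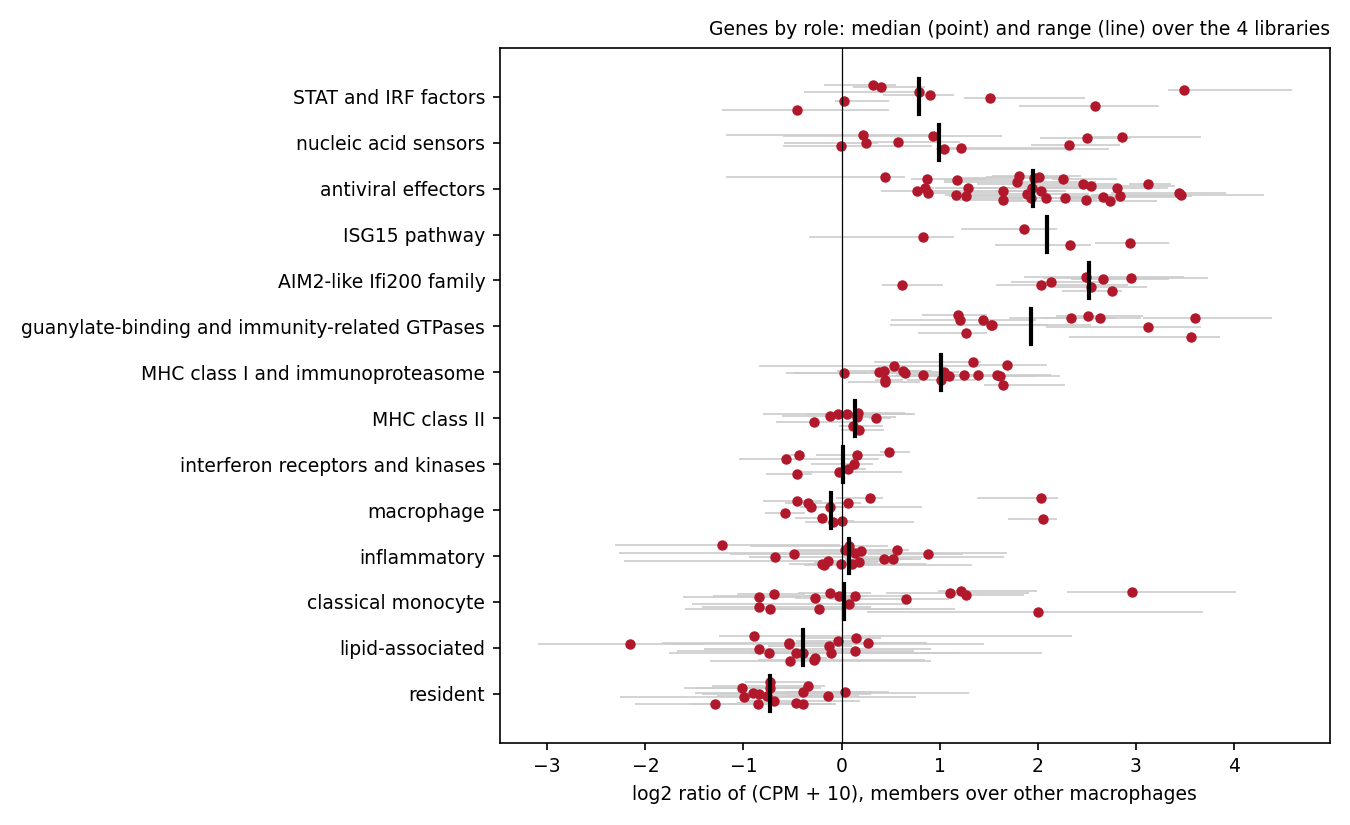
Median log2 ratio, members over other macrophages, of each gene in 14 lists of genes by role (rows). Points are genes with at least 5 CPM over kept cells at their median over 4 libraries, grey lines the range over libraries, and black bars the median of the genes drawn. Antiviral genes centre at 1.95, major histocompatibility class II genes at 0.14 and resident macrophage genes at -0.73.

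Receptors for immunoglobulin G stood out among genes of the macrophage lineage. Fcgr1, which encodes CD64, the sorting antigen, stood at 324 CPM in members of CKO HFD, 423 in WT HFD, 171 in CKO normal diet and 140 in WT normal diet, against 63.0, 90.1, 35.7 and 36.5 CPM in the other macrophages. The ratio was 5.15 (4.03 to 6.48), 4.70, 4.80 and 3.85 (2.51 to 5.67) in that order, and 71 of 99 members held a UMI. With each cell thinned to 2000 UMIs, 46.3, 70.6, 21.4 and 21.7% of members held one, against 11.2, 16.5, 9.23 and 8.56% of the other macrophages. None of the fibroblast-marked cells held a UMI of it. Fcgr4, which encodes another activating receptor, stood at 145, 195, 153 and 109 CPM in members, against 27.8, 40.3, 25.5 and 35.9 CPM in the other macrophages. Both Fc receptor genes carry one of the motifs in the promoters shown above.

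The rest of the macrophage programme differed little. C1qb, a subunit of complement C1q, stood at 4350, 3164, 1406 and 1113 CPM in members, against 3653, 3283, 1044 and 884 CPM in the other macrophages. The growth factor receptor Csf1r, a gene of the rule, had a median log2 ratio of -0.34, and Adgre1, which encodes F4/80, of -0.45. Of 10 macrophage genes above 20 CPM over kept cells, 2 were at least 2-fold higher in all 4 libraries, the 2 Fc receptors, and 3 were lower in all 4. C1qb in 3 libraries and the 2 Fc receptors in all 4 stood above their levels in the other macrophages, as the label of macrophage asks.

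Genes of peptide presentation on class I molecules were higher in members for most of the list. Psmb9, an immunoproteasome subunit, stood at 316, 292, 171 and 213 CPM in members, against 92.1, 58.9, 72.8 and 69.1 CPM in the other macrophages. Tap1, the peptide transporter, had a median log2 ratio of 1.65 and Psmb8 of 1.39, while the heavy chains H2-K1 and H2-D1 had medians of 0.44 and 0.38. The non-classical class I genes H2-T22 and H2-T23 had medians of 1.68 and 1.25. Of 15 class I genes above 20 CPM over kept cells, 13 were higher in members in all 4 libraries, against 8.24% of the 4779 genes, and 3 were at least 2-fold higher in all 4. Of 8 class II genes 2 were higher in all 4, with a median of 0.16.

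Other chemokines differed between libraries. Ccl12, a ligand of CCR2, stood at 1859 CPM in members of CKO HFD, 461 in WT HFD, 784 in CKO normal diet and 109 in WT normal diet, against 363, 106, 111 and 148 CPM in the other macrophages, so that it was higher in 3 libraries. Ccl4 stood at 1015, 609, 469 and 146 CPM in members, against 342, 178, 121 and 166 CPM in the other macrophages, with the same exception. Ccl5 rested on 1 cell that held 71, 100, 67 and 69% of its member UMIs in the 4 libraries. Ccl24, an eosinophil attractant, had a median log2 ratio of -1.84 and was close to the other macrophages only in CKO HFD, at 209 CPM in members and 224 CPM in the other macrophages.

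Genes of tissue-resident macrophages were lower as a list in members of 3 libraries. In CKO HFD, which holds 43 of the 99 members, the list's median was near that of all genes. Single genes such as Mrc1 and Selenop were lower in all 4 libraries. The list's median log2 ratio was -0.13 in CKO HFD, -0.58 in WT HFD, -0.92 in CKO normal diet and -1.07 in WT normal diet, against -0.10, -0.11, -0.25 and -0.18 over all genes. With cells thinned, Lyve1 or Folr2 had a UMI in 46.3, 17.6, 35.7 and 21.7% of members, against 46.0, 21.2, 50.1 and 41.3% of the other macrophages. Lyve1, the hyaluronan receptor of perivascular macrophages, stood at 136, 25.4, 45.1 and 46.8 CPM in members, against 142, 68.3, 227 and 144 CPM in the other macrophages, and was level in CKO HFD alone. Pf4 stood at 2461, 377, 1721 and 889 CPM in members, against 3099.9, 1167, 2135 and 1953 CPM in the other macrophages. Of 14 resident genes above 20 CPM over kept cells none was higher in all 4 libraries and 9 were lower in all 4, against 18.2% of the 4779 genes, with a list median of -0.73. The single gene at least 2-fold lower in all 4 libraries was Mmp12, a macrophage elastase, at 34.1, 12.7, 0 and 41.6 CPM in members, against 113, 151, 75.7 and 127 CPM in the other macrophages, and its member UMIs lay in 5 cells. Lipid-associated macrophage genes had a median of -0.34, with Trem2, a lipid receptor, at -0.74 and Apoe, the lipid carrier, at -0.27. Plin2, Lgals3 and Itgax of the same list had medians of 0.26, 0.15 and 0.14. Of 14 lipid-associated genes above 20 CPM over kept cells, none was higher in all 4 libraries. In all 4 libraries 3 were lower, a share like the 18.2% of the 4779 genes. In WT normal diet the list lay the other way, at a median of 0.57, and Trem2 reached 1.19, with 76.9% of its UMIs in 1 cell.

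Although members held no Ly6c2 by rule, they held other genes of classical monocytes, some above and some below the other macrophages. Of 11 such genes above 20 CPM over kept cells, 4 were higher in all 4 libraries, against 8.24% of the 4779 genes, and 2 were lower, a share like the 18.2% of all genes, with a median of -0.02. Plac8 had a median log2 ratio of 1.22, with a UMI in 24 of 99 members, and the chemokine receptor Ccr2 of -0.02. Fn1 was lower in all 4 libraries (median -0.84), and F13a1 and S100a6 had medians of -0.85 and -0.27. Samhd1, with a median of 1.27, is in the antiviral list as well. Ms4a4c, which is in the monocyte list and is also raised by interferon in mouse cells, stood at 115, 453, 234 and 161 CPM in members and had a median of 2.96.

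Markers of T and natural killer cells and of fibroblasts were at low levels in members. Markers of conventional dendritic cells were not low in the normal diet libraries, where 4 of 15 CKO members and 14 of 24 WT members held a UMI of that list. The summed T and natural killer cell list stood at 0, 0, 0 and 15.6 CPM in members, and the fibroblast list at 0, 0, 9.01 and 10.4 CPM in members, against 32.1, 204, 11.8 and 8.08 CPM in the other macrophages. The conventional dendritic cell list stood at 76.8, 21.2, 379 and 530 CPM in members, against 48.6, 50.4, 281 and 318 CPM in the other macrophages, higher in both normal diet libraries than in both HFD libraries. In WT normal diet 1 member held 14 UMIs of Ccr7, 36 of Fscn1 and 22 of the library's 23 member UMIs of Ccl22, genes of mature dendritic cells. The part of these cells in the results was not tested, other than by leaving out cells with Ccr7 or Fscn1.

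Of the 27 members with a UMI of Cxcl9, 24 also held Isg15 and 8 held Rsad2, while 66 members held Rsad2 and no Cxcl9. The rule itself sets part of this, because a member without Cxcl9 can only have passed through the other 6 genes. Genes that vary with those 6 are then higher in members without Cxcl9 by selection, so values lower with Cxcl9 are given as a description. CKO HFD (9 cells with Cxcl9 and 34 without, median depths 6245 and 4232 UMIs) and WT normal diet (11 and 13 cells, 8812 and 5455 UMIs) had enough cells to compare. Members with Cxcl9 had at least 2-fold higher levels of 5.45% of 936 genes and lower levels of 17.5% in CKO HFD, and of 7.88% and 14.8% of 1028 genes in WT normal diet.

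**Figure D4:**
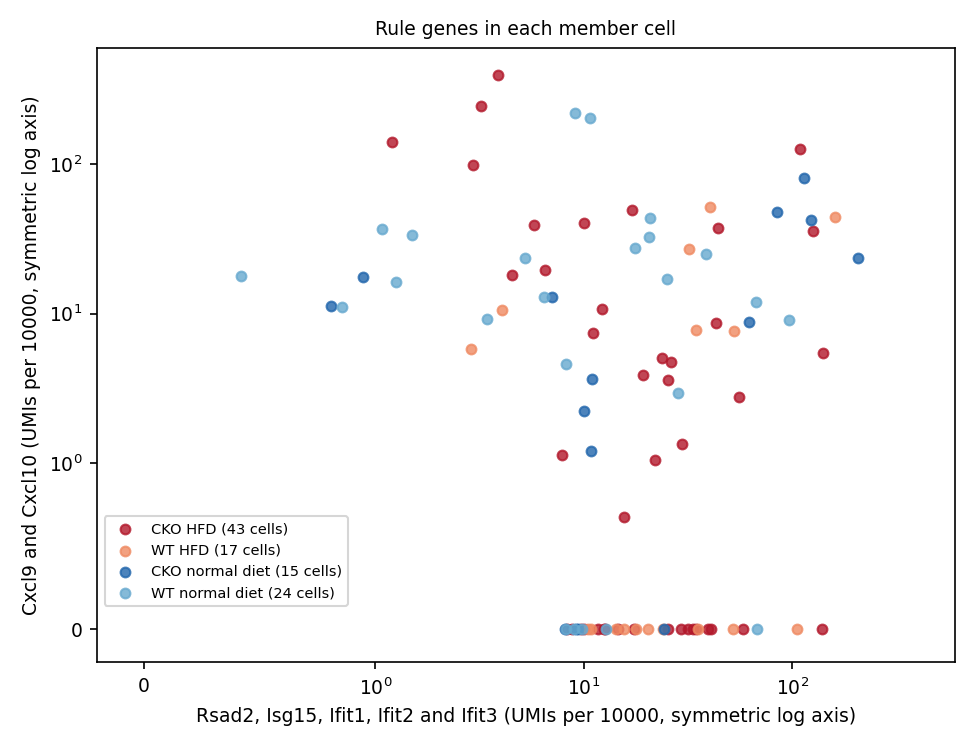
Each of the 99 members by its UMIs of Rsad2, Isg15, Ifit1, Ifit2 and Ifit3 (horizontal) and of Cxcl9 and Cxcl10 (vertical), both per 10000 UMIs on symmetric log axes, coloured by library. The 37 members on the bottom line held neither chemokine; the empty lower left corner is set by the rule's threshold of 8 UMIs per 10000.

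Gbp2, a guanylate-binding protein, was higher in members with Cxcl9. It stood at 1137 CPM in members with Cxcl9 and 127 CPM in members without in CKO HFD, a ratio of 8.98 (5.49 to 15.3). In WT normal diet it stood at 1067 CPM with Cxcl9 and 125 CPM without, a ratio of 8.56 (4.60 to 17.6). C3, the central complement protein, stood at 692 and 69.0 CPM in CKO HFD and at 221 and 22.7 CPM in WT normal diet, with Cxcl9 given first. Irf8, a factor of macrophage and dendritic cell development, stood at 363 and 121 CPM in CKO HFD and at 259 and 102 CPM in WT normal diet. In both libraries each of these genes was higher in members with Cxcl9. Serpina3g, a serine protease inhibitor, stood at 593 and 40.3 CPM in CKO HFD and at 86.5 and 0 CPM in WT normal diet.

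Genes that answer type I interferon had lower values with Cxcl9, a direction the rule can fix. Irf7 stood at 115 CPM with Cxcl9 and 305 CPM without in CKO HFD, and at 67.3 and 329 CPM in WT normal diet. Ifi204 stood at 181 and 621 CPM in CKO HFD and at 202 and 725 CPM in WT normal diet. Iigp1 was not divided in the same way in both libraries, with a ratio of 5.16 in CKO HFD and 0.969 in WT normal diet.

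Resident macrophage genes were also lower in members with Cxcl9 in CKO HFD, where 13 of 14 were at least 2-fold lower and the list median was -2.03. In WT normal diet 3 of 7 were lower and the median was -0.37. Lyve1 in CKO HFD had no UMI in members with Cxcl9 and stood at 184 CPM in members without, while in WT normal diet it stood at 67.3 and 22.7 CPM. Retnla, a secreted protein of alternatively activated macrophages, stood at 2472 and 14999.7 CPM in CKO HFD and at 3152 and 3852 CPM in WT normal diet. Fcgr1 was not higher with Cxcl9, at 280 and 339 CPM in CKO HFD and at 106 and 181 CPM in WT normal diet.

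CKO and WT members on HFD differed by at least 2-fold in 6.87% of 2053 genes that were higher in CKO and 12.5% that were lower. Cxcl9 was 18.8-fold higher in CKO (12.4 to 30.1), 25.9-fold without the top cell of each library, with 9 of 43 members positive in CKO and 4 of 17 in WT. The size rests on leaving out cells with Ly6c2: pooled with the interferon-responding cells that hold it, Cxcl9 stood at 1495 CPM in CKO and 774 CPM in WT, a ratio of 1.93 (1.64 to 2.27). In the other macrophages it was 6.88-fold higher in CKO, so the difference was not limited to the members. Gbp2 stood at 388 CPM in CKO and 165 CPM in WT, a ratio of 2.35 (1.60 to 3.52), or 1.17 (0.863 to 1.59) with the Ly6c2 cells pooled in, and Iigp1 had a ratio of 2.82, or 6.81 without the top cells. Cxcl10 had a ratio of 1.55 (1.30 to 1.87).

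Genes that answer type I interferon were level or lower in CKO members on HFD. Isg15 had a ratio of 1.01 (0.849 to 1.20), Rsad2 of 0.600 (0.481 to 0.745), Ifit3 of 0.507 and Irf7 of 0.565. Fcgr1 had a ratio of 0.766 (0.561 to 1.04). Of 32 antiviral genes 1 was at least 2-fold higher and 2 lower in CKO, with a median of -0.61 against -0.12 in the other macrophages and -0.20 over all genes in members. The scaling by TMM would add 0.16 to these log2 ratios.

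Resident macrophage genes were higher in CKO members on HFD, 10 of 14 by at least 2-fold with a median of 1.45, and 4 of 14 with a median of 0.78 in the other macrophages. Pf4 stood at 2461 CPM in CKO and 377 CPM in WT members, a ratio of 6.54, against 2.66 in the other macrophages. Cd163, a scavenger receptor for haemoglobin, was 2.62-fold higher in CKO among members and 2.52-fold among the other macrophages, and 80% of its UMIs in WT members came from 1 cell. Ccl12 had a ratio of 4.03 and Ccl7 of 4.80, against 3.43 and 2.55 in the other macrophages. Lower in CKO were Pparg, the lipid-sensing nuclear receptor, with 3 UMIs in CKO and 61 in WT members, a ratio of 0.0496 (0.00995 to 0.152), against 0.287 in the other macrophages. Spp1, which encodes osteopontin, had 1 UMI in CKO and 25 in WT members, a ratio of 0.0403 (0.000982 to 0.246), and 92% of the WT UMIs came from 1 cell. Cmss1 had a ratio of 0.0815 in members and 0.0859 in the other macrophages, so its difference was as large outside the members.

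On normal diet the Cxcl9 genes lay the other way. Cxcl9 stood at 442 CPM in CKO and 1326 CPM in WT members, a ratio of 0.333 (0.240 to 0.454), and at 114 CPM and 943 CPM without the top cells, a ratio of 0.120. With the Ly6c2 cells pooled in the ratio was 0.236 (0.176 to 0.311). Gbp2 stood at 198 CPM in CKO and 634 CPM in WT members, a ratio of 0.313 (0.189 to 0.495), and Psme2, a proteasome activator subunit, had a ratio of 0.322. At least 2-fold higher in CKO were 2.71% of 1547 genes, and lower were 6.72%. Cxcl9 was held by 3 of 15 CKO members and by 11 of 24 WT members.

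Ccl12 was higher in CKO under normal diet too, at 784 CPM in CKO and 109 CPM in WT members, a ratio of 7.18 (4.42 to 12.2), against 0.750 in the other macrophages. Ccl4 had a ratio of 3.22. Isg15 had a ratio of 0.932, Rsad2 of 0.825, Irf7 of 1.11 and Ifit1 of 2.24. Lipid-associated genes were lower in 6 of 13 with a median of -0.98, against -0.17 in the other macrophages, and Fabp5, a fatty acid binding protein, had a ratio of 0.0732 with 59% of its WT UMIs in 1 cell. Ccl12 was therefore higher in CKO members on both diets.

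**Figure D5:**
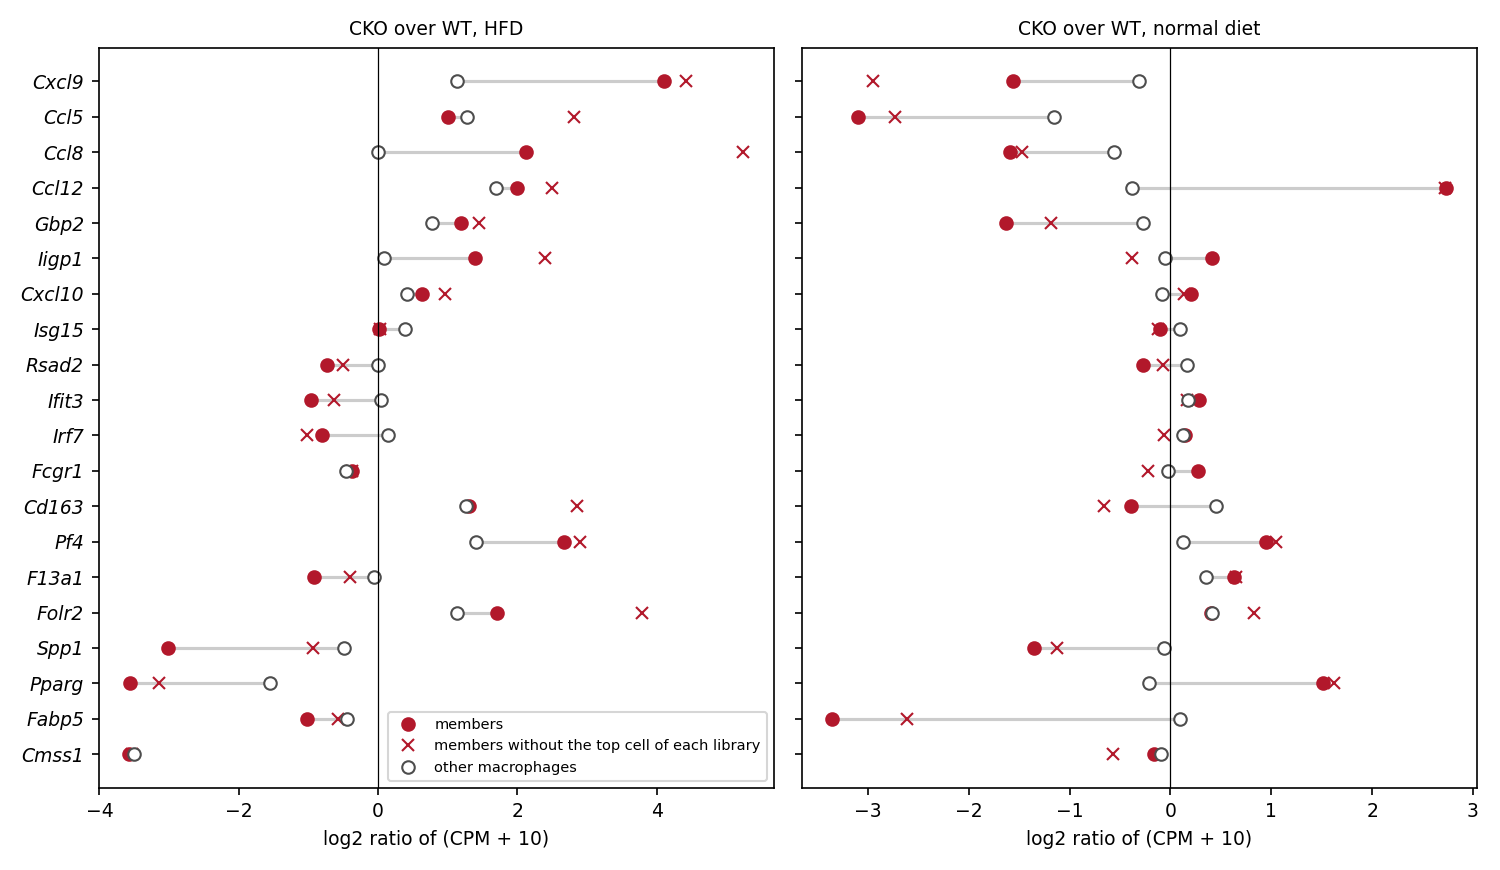
Log2 ratio of CKO over WT for 20 genes under HFD (left) and normal diet (right): filled points for members, crosses for members without the cell that holds the most UMIs of the gene in each library, open points for other macrophages, joined to the members by grey lines; the ratio is of CPM with 10 added. Cxcl9 and Gbp2 lie right of 0 under HFD (ratios 18.8 and 2.35) and left of 0 under normal diet (0.333 and 0.313), while Isg15 lies near 0 under both (1.01 and 0.932).

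The comparison by diet uses the same 4 libraries. In CKO members 17.3% of 1522 genes were at least 2-fold higher on HFD and 20.4% lower, and in WT members 7.75% of 2156 were higher and 13.6% lower. TMM scaling turned this balance, with the 263 higher and 310 lower genes in CKO becoming 527 and 187, and the 167 higher and 293 lower genes in WT becoming 292 and 190. Isg15 was higher on HFD in both genotypes, with ratios of 2.58 in CKO and 2.39 in WT. Fcgr1 was higher likewise, with ratios of 1.89 in CKO and 3.01 in WT, and Bst2 had a ratio of 2.18 in CKO. By the CPM given above, Fcgr1 was also higher on HFD in the other macrophages of both genotypes. The difference by diet in Fcgr1 was therefore not limited to the members. Rsad2 had ratios of 1.06 in CKO and 1.47 in WT. The chemokine Ccl2, which attracts monocytes, was higher on HFD by 8.35-fold in CKO and 4.49-fold in WT members, against 3.92-fold and 1.06-fold in the other macrophages.

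Cxcl9 differed by diet in opposite directions, at a ratio of 4.15 in CKO (3.09 to 5.70) and 0.0734 in WT (0.0457 to 0.113). With the Ly6c2 cells pooled in, the ratios were 3.57 in CKO (2.71 to 4.79) and 0.436 in WT (0.369 to 0.515). Cxcl10 had ratios of 1.63 in CKO and 1.21 in WT members, whereas in the other macrophages it had ratios of 0.232 in CKO and 0.115 in WT. Cxcl10 is a gene of the rule, which sets a floor under the summed level of the 7 genes and not under Cxcl10 alone. It had a UMI in 23 of 43 members in CKO HFD and 5 of 17 in WT HFD. On normal diet it had one in 11 of 15 in CKO and 17 of 24 in WT. Its ratios in members are therefore a description. Ccl12 had a ratio of 4.22 in WT members and 0.716 in the other macrophages. Lipid-associated genes were at least 2-fold higher on HFD in 7 of 11 in CKO members, with a median of 1.20, against 17.3% of all genes. In WT members 4 of 15 were higher and 2 lower, with a median of 0.57, against 7.75% and 13.6% of all genes. The summed list was also higher on HFD in the other macrophages. It stood there at 13129 CPM on HFD and 7779 CPM on normal diet in CKO, and at 18728 and 8228 CPM in WT. In members it stood at 10359 and 5786 CPM in CKO and at 17303 and 8959 CPM in WT. TMM scaling would add 0.48 to the log2 ratios in CKO and 0.24 in WT.

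Cells that met the interferon criteria and the other terms of the rule but held Ly6c2 numbered 9 in CKO HFD, 6 in WT HFD, 5 in CKO normal diet and 5 in WT normal diet, too few for more than their values. They held 0, 210, 9 and 131 UMIs of Cxcl9, against 430, 23, 49 and 255 in members, from 0, 2, 2 and 3 cells with Ly6c2 and 9, 4, 3 and 11 members. Of the Cxcl9 UMIs in both sets, most thus lay in 2 cells with Ly6c2 in WT HFD, and all lay in members in CKO HFD. Isg15 had 59, 163, 15 and 15 UMIs and Rsad2 26, 125, 3 and 8 in the cells with Ly6c2. Plac8, a monocyte gene, had 227, 100, 149 and 73 UMIs there, and Fcgr1 had 23, 62, 7 and 9.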

How the data were processed

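Single-cell libraries were made with a 10x Chromium 3′ kit, per the labels' protocols, from macrophages of 4 groups with 1 library each. The deposited matrices hold whole-number UMI counts per gene and cell, made with Cell Ranger 7.0.0 per the file headers, on GRCm38 per the submitters' processing notes. They contain 32285 genes, and no normalization was applied to them by the authors as far as the values show. Groups came from the labels.

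Computed from these counts were the cell filters, the members, UMIs summed per library and set, CPM (counts per 1000000 UMIs of the set) and log2 ratios with 10 CPM added to each side (numpy 2.4.6, scipy 1.17.1, pandas 2.3.3). Thresholds were 50 CPM and 20 UMIs in the higher set and a 2-fold difference. Ratios of summed counts have exact conditional 95% intervals, shares exact Clopper-Pearson intervals and levels exact Poisson intervals, all for counting error only. Cells of 1 library are not replicates, so no test was made. A level of 0 allows up to 3 UMIs.

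Scrublet in scanpy 1.11.5 called 0 doublets in every library, so it has not worked here; doublets were kept, and an alternative removed the top scores at 0.8% per 1000 cells (1 member in CKO HFD, 1 in WT normal diet). The rule removes cells by their genes, and Mki67 or Top2a cells are left out by it. The member rule, the gene lists and the comparisons were chosen with earlier results of these data known.

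Genes named in the text are those of the lists, of the rule, the 15 highest and 10 lowest medians of members over other macrophages, and the 8 highest and 8 lowest ratios of each comparison within members, some of them given here by count only. Mitochondrial, ribosomal, immunoglobulin, T cell receptor, predicted and sex-linked marker genes were left out of that choice. Of the listed symbols, 7 did not match the files (Mb21d1, Sting1, Mx1, Mx2, Mnda, Gbp11 and Cxcl11) and were not used here. Alternatives were other rule thresholds, thinning to 2000 UMIs, pseudocount 1, a 200 CPM minimum, TMM factors (edgeR 4.0.16), equal weight per cell, choosing members on one part of each cell's UMIs and measuring on the rest, and division by the other macrophages. Promoter windows come from RefSeq on GRCm38.p6, and printed windows are those whose start matched the beginning of a GENCODE transcript. Pooling members with the Ly6c2 cells and the count over matched windows were added after seeing the data. Results on some genes are not reported here.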

Additional observations from a re-analysis of the deposited data

Results flagged for a closer look

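For 7 genes the ratio of CKO over WT members lay at least 2-fold above 1 under HFD and at least 2-fold below 1 under normal diet. These differences between the diets were not tested, since each group is 1 library. Cxcl9, the CXCR3 ligand, had ratios of 18.8 under HFD and 0.333 under normal diet, and of 1.93 and 0.236 when cells with Ly6c2 that met the other terms were pooled in. Gbp2, the guanylate-binding protein, had ratios of 2.35 under HFD and 0.313 under normal diet, and of 2.89 and 0.430 without the cell richest in it in each library. With the Ly6c2 cells pooled in, Gbp2 had ratios of 1.17 under HFD and 0.269 under normal diet. C3, the complement protein, had a ratio of 2.59 under HFD, and under normal diet a ratio of 0, from 0 UMIs in 15 CKO members and 25 UMIs in 24 WT members.

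Ccl5, a T cell attractant, had ratios of 2.10 under HFD and 0.100 under normal diet, with 67 to 100% of its UMIs in 1 cell of each library. Ccl8, a monocyte attractant, had ratios of 4.52 under HFD and 0.324 under normal diet, and 98% of its UMIs in WT HFD members came from 1 cell. Fabp4, the fatty acid binding protein of fat cells and macrophages, had ratios of 2.43 under HFD and 0.231 under normal diet, and the second became 0.827 without the top cells. Uqcrb, a subunit of respiratory complex III, had ratios of 2.30 under HFD and 0.452 under normal diet, against 2.00 and 0.974 in the other macrophages.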

How the results depend on the processing

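Shares of members moved with the rule's thresholds. At least 2 genes gave 0.916% in CKO HFD, 0.767% in CKO normal diet and 1.19% in WT normal diet, and at least 4 genes gave 0.309% in CKO HFD and 0.324% in WT normal diet. A level of 4 per 10000 gave 0.624% in WT HFD, a level of 16 gave 0.186% in CKO normal diet, and thinning gave 0.172% in CKO normal diet and 0.396% in WT normal diet. Genes higher in members of all 4 libraries, 27 in the report, numbered 14 at a minimum of 200 CPM, 4 when members were chosen and measured on separate UMIs, and 1 after thinning. The 1 lower gene became 2 with a pseudocount of 1 and with cells weighted alike, 0 at 200 CPM, on separate UMIs and at an added minimum of 20 UMIs expected in the smaller set, and 10 after thinning.

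For CKO over WT under HFD the 141 higher genes became 69 at 200 CPM, 75 after thinning and 48 after division by the other macrophages, and the 257 lower ones 86, 21 and 62. Under normal diet the 42 higher became 78 with cells weighted alike and 9 after thinning, and the 104 lower became 35 at 200 CPM, 161 with cells weighted alike, 30 after thinning and 43 with the added minimum. For HFD over normal diet in CKO the 263 higher became 157 at 200 CPM, 527 with TMM, 164 with the added minimum and 96 after division, and the 310 lower became 187 with TMM, 9 after thinning and 48 after division. In WT the 167 higher became 78 at 200 CPM, 292 with TMM, 48 after thinning and 99 after division, and the 293 lower became 119, 190, 34 and 95 in that order.

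Direction was reversed for Cadm1 under CKO over WT on normal diet (log2 ratio -0.67 with cells weighted alike and -3.75 after thinning) and Sgms1 in the same comparison (-2.33 after thinning). It was reversed in CKO for HFD over normal diet for Ccl17 (-0.93 without top doublet scores), Nr4a2 and Chn2 (1.36 each after thinning), and in WT for Rnase2a (-0.49 after division by the other macrophages). Of the values for single genes, 956 stayed close, 143 moved and 7 reversed. The cause of these changes was not tested, beyond the fewer genes and cells that stricter settings leave. The added minimum and the pooling with Ly6c2 cells were chosen after seeing the data. No paired analysis was possible because each group is 1 library. Members hold 110953 to 236376 UMIs in a library, so a gene under 12.7 to 27.0 CPM can be missed.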
